A study of Mus musculus with 4 samples.

Results

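The genes of the TNF ligand and TNF receptor superfamilies were examined in CD117-selected bone marrow cells of mice with an inducible, constitutively active HIF-1α and of wild-type controls. Members were the rows of the deposited count table whose Entrez identifier maps to a symbol beginning Tnfsf or Tnfrsf, with Tnf, Lta, Ltb, Ltbr, Cd27, Cd40, Cd40lg, Cd70, Fas and Fasl added. This gave 42 genes of 24415 rows, namely 18 ligands and 24 receptors. Wild type (genotype label wild type) and inducible HIF-1a each had 2 RNA-seq libraries, and all 4 share the strain background label C57BL/6, 129X1/SvJ. CD117 is the KIT receptor, carried by blood stem and progenitor cells (HSPCs). Not given in the sources used here are the promoter driving the induced protein, the inducing agent, the time after induction, the age of the mice and whether libraries of a genotype came from separate mice. The p-values thus rest on the spread among these 4 libraries, and that spread may be technical.

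TNF superfamily ligands are mostly membrane proteins that act as trimers, some of them after being shed, and each binds 1 or a few receptors of the matching family. Some receptors carry a death domain and can recruit caspase-8 through the adaptor FADD, while others bind TRAF adaptors and lead to NF-κB signalling. In bone marrow the families are known for the survival of B cells and plasma cells (BAFF and APRIL), for osteoclast formation (RANK ligand), for T cell costimulation, and for the effects of TNF and FAS ligand on progenitor cells.

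Total counts ranged from 22221798 to 27539149 per library. Levels are given as CPM (counts divided by the TMM-scaled library size in units of 1e6 counts), where 3 counts, the upper limit for a gene with none, equal 0.112 to 0.138 CPM depending on the library (counting error only). HSPC markers were present in all libraries, with Kit at 268 and 242 CPM in wild type and 347 and 390 CPM in inducible HIF-1a. Markers of mature cells were present too, and their summed levels differed between the genotypes. For B cells, 10 markers summed to 549 and 521 CPM in wild type against 16.9 and 6.36 CPM in inducible HIF-1a, 9 of the 10 were called lower, and Pax5 was at 0 counts in both inducible HIF-1a libraries. For macrophages, 11 markers summed to 489 and 521 CPM against 191 and 93.0 CPM, with 8 called lower. Vcam1, not called, was the largest part of that sum, at 243 and 268 CPM against 126 and 56.2 CPM. The 8 called markers fell further than the sum, each to 13.0% of the wild-type mean or less in both inducible HIF-1a libraries. Csf1r (60.3% and 31.5%) and Cd163 (49.2% and 27.3%) fell less and were not called. The 8 neutrophil markers summed to 14357 and 13284 CPM against 9102 and 4002 CPM, and the 8 T and NK cell markers, at 77.2 and 74.3 CPM in wild type, stood at 31.7% and 23.8% of the wild-type mean, with 2 called lower in each list. The 6 HSPC markers summed to 955 and 929 CPM in wild type and to 1112 and 995 CPM in inducible HIF-1a. Spread within a genotype, as the biological coefficient of variation, was 33.4% for inducible HIF-1a and 15.1% for wild type. Hif1a itself was at 179 and 168 CPM in wild type and 155 and 113 CPM in inducible HIF-1a (log2 fold change -0.38 ± 0.21 SE, adjusted p = 0.426, edgeR quasi-likelihood test), and no label says if the induced transcript is counted in it.

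Of the 42 members, 34 had enough counts to be tested, 14 ligands and 20 receptors. Past an adjusted p of 0.05 (edgeR quasi-likelihood test, Benjamini-Hochberg over 14043 genes), 2 members fell in the inducible HIF-1a libraries, the BAFF receptor gene Tnfrsf13c and Tnfrsf19, and none rose. Over all genes tested, 1.12% were called, 141 lower and 16 higher (0.114%). With an unadjusted p under 0.05 there were 9 lower members and 1 higher, Tnfsf4, among 34 tested, beside 16.9% of all tested genes (11.5% lower and 5.44% higher). DESeq2, edgeR's exact test and limma-voom called 4, 6 and 2 members lower and none higher, beside 5.69%, 6.62% and 1.36% of all tested genes lower and 1.22%, 1.36% and 0.121% higher. The tested members' median log2 fold change was -0.76, beside 0.00 (0.0010) for all tested genes, and was the same with Tnfrsf17, which had no counts in inducible HIF-1a, set at its ratio against 3 counts over the group. By class, 18 of 20 tested receptors and 8 of 14 tested ligands had negative values, with medians of -0.86 and -0.28. Since Cd40, Tnfrsf17 and Tnfrsf19 reached the level needed for testing in the wild-type libraries only, these counts and medians describe the tested members and support no difference between them and other genes. The genotypes did not overlap for 19 of the 34 tested members (55.9%), 17 lower and 2 higher, beside 52.7% of all tested genes.

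**Figure D1:**
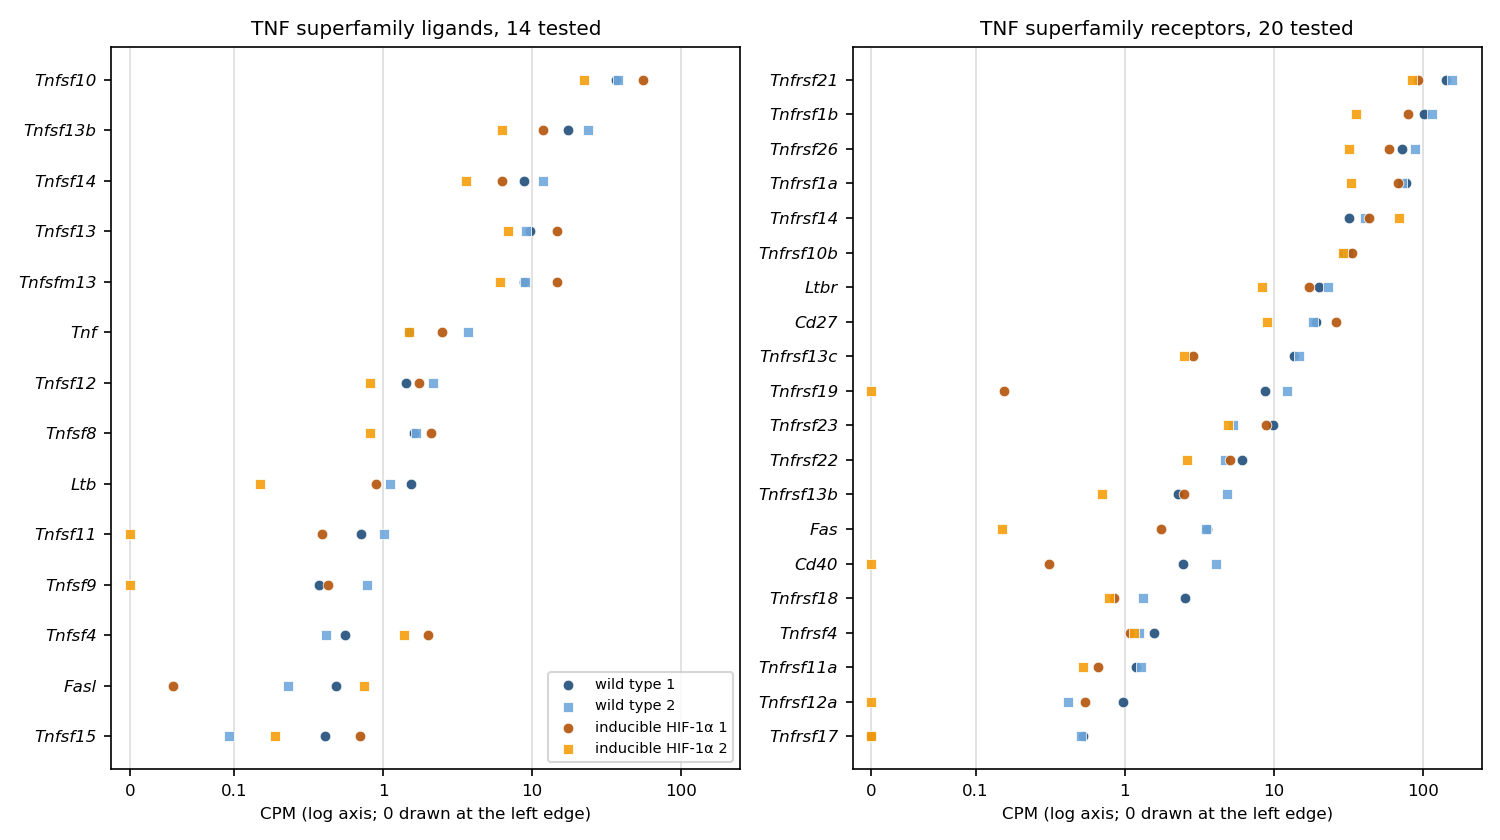
CPM (log axis, 0 drawn at the left edge) of the 14 tested ligands and 20 tested receptors in each of the 4 libraries, wild type in blue and inducible HIF-1α in orange, ordered by the wild-type mean. Tnfrsf13c, Tnfrsf19 and Cd40 are separated by genotype, and inducible HIF-1α library 2 is the lower of its pair for 30 of the 34 genes.

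The spread between the inducible HIF-1a libraries had a direction for these genes. Replicate 2 was below replicate 1 for 30 of 34 tested members (88.2%), whereas 50.4% of all tested genes were lower in replicate 2. In wild type, replicate 2 was below replicate 1 for 14 of the 34. Marker sums also differed in that direction within the inducible HIF-1a pair, with neutrophil markers at 65.9% and 29.0% of the wild-type mean and macrophage markers at 37.8% and 18.4%. Erythroid markers went the other way, at 46.1% and 105%. HSPC markers summed to 118% and 106%, and each but Kit was lower in replicate 2. Cd34 was at 112% and 48.9%, Gata2 at 119% and 61.5%, and Meis1 at 122% and 67.5%. Myb (111% and 98.4%) and Hoxa9 (92.0% and 85.6%) differed less, and Kit was at 136% and 153%. Whether the cell types behind those markers account for the members' values was not tested.

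The BAFF and APRIL system, which keeps B cells and plasma cells alive, held the first of the called genes, and with CD40 it counted 7 tested genes of 8, of which 1 was called lower (median log2 fold change -1.19). Tnfrsf13c encodes the BAFF receptor of mature B cells (Entrez 72049; chromosome 15, 82221742 to 82224380, GRCm38, the assembly behind mm10). Wild type had 367 and 320 counts of it, and inducible HIF-1a had 74 and 67. On the CPM scale it fell from 14.2 ± 0.759 to 2.69 ± 0.254 (SD, n = 2 each), or by 5.29-fold (log2 fold change -2.40 ± 0.30, edgeR adjusted p = 0.0235, SE after the sign). The libraries of each genotype lay close together, and the genotypes were far apart. In bulk cells such as these, fewer cells of a type and less RNA per cell cannot be told apart. B cell markers fell as well, but by more: their sum was at 3.16% and 1.19% of the wild-type mean in the inducible HIF-1a libraries, where Tnfrsf13c was at 20.1% and 17.6%. Relative to that marker sum, Tnfrsf13b stood at 0.414% and 0.93% in wild type and at 14.9% and 11.2% in inducible HIF-1a. Cd40 stood at 0.448% and 0.788% against 1.83% and 0%, and Tnfrsf17 at 0.0951% and 0.0974% against 0% in both. A higher ratio was thus not particular to Tnfrsf13c. Tnfrsf13c itself stood at 2.49% and 2.83% in wild type and at 16.9% and 39.4% in inducible HIF-1a, values given with no test. The call was lost without wild-type replicate 1 (log2 fold change -2.44, adjusted p = 0.377) and without wild-type replicate 2 (-2.35, adjusted p = 0.592), fits in which only 2 or no genes of the whole table were called lower.

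Promoter windows of the called genes are printed here because HIF-1 and NF-κB act through short DNA motifs. Each covers 250 bases before and 50 after an annotated RefSeq start (GRCm38.p6), 5′ to 3′ on the gene's strand, in lower case with the searched motifs in capitals. The motifs were the hypoxia response element cores ACGTG and GCGTG and the κB site, on both strands. Because CACGTG reads the same on both strands, it counts as ACGTG on each. The Tnfrsf13c window holds none of these letters. Tnfrsf19 has a pair of annotated windows, of which the first holds CACGTG and GCGTG and the other holds GCGTG.
Tnfrsf13c, chr15:82224331-82224630, minus strand: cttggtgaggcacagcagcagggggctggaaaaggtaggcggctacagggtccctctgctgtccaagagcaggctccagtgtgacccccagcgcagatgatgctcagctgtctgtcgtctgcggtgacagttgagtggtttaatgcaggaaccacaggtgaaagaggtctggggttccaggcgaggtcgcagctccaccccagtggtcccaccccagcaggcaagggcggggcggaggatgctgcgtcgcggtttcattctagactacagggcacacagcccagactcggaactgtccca
Tnfrsf19, chr14:61037938-61038237, minus strand: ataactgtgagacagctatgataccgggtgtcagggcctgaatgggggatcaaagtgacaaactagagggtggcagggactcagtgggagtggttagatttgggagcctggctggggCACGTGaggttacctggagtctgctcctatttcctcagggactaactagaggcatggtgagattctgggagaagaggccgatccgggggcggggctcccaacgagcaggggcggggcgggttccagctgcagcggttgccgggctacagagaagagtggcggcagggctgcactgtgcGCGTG
Tnfrsf19, chr14:61046806-61047105, minus strand: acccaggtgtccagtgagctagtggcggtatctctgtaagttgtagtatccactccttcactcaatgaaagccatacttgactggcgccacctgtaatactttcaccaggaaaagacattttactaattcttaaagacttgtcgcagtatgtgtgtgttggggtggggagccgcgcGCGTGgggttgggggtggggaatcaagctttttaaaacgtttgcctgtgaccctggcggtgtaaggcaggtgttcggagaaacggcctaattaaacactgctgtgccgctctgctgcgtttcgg
RefSeq windows were found for 32 of the 42 members, 36 windows in all. Of these, 27.8% held ACGTG, 36.1% held GCGTG and 11.1% held a κB site, beside 19.6%, 32.4% and 8.46% of the 32851 windows of all genes. A match describes the letters only and is no evidence of a bound site.

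Other receptors of the system were at low counts. Tnfrsf17, encoding the plasma cell receptor BCMA, had 14 and 11 counts in wild type and 0 in both inducible HIF-1a libraries, and it was not called (adjusted p = 0.154). The exact 95% lower limit of its ratio was 6.82 (counting error only). The 4 plasma cell markers summed to 601 and 594 CPM in wild type and 239.95 and 120 CPM in inducible HIF-1a. Jchain, at 451 and 459 CPM against 76.0 and 36.4 CPM, made up most of the wild-type sum and was the only one called lower. In the inducible HIF-1a libraries, Xbp1 was at 119% and 59.4% of the wild-type mean, Sdc1 at 70.2% and 48.4%, and Prdm1 at 73.9% and 48.3%. The part of these markers in the Tnfrsf17 values was not tested. Tnfrsf13b, encoding TACI, a receptor for both BAFF and APRIL, had 61 and 105 counts in wild type and 65 and 19 in inducible HIF-1a, so the genotypes overlapped (-1.14 ± 0.71, adjusted p = 0.466). Its row overlaps the neighbouring gene Usp22 on the genome, and no source used here says if the counting used strand.

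The ligands of these receptors did not pass the threshold. Tnfsf13b, encoding BAFF, was at 17.4 and 23.9 CPM in wild type and 11.8 and 6.25 CPM in inducible HIF-1a (log2 fold change -1.19 ± 0.36, adjusted p = 0.185). No inducible HIF-1a value reached the wild-type range, and the gene was called lower without either inducible HIF-1a library and by edgeR's exact test. Tnfsf13, encoding APRIL, was at 9.74 and 9.05 CPM in wild type, between the inducible HIF-1a values of 14.7 and 6.88 CPM (0.20 ± 0.39, adjusted p = 0.84). Tnfsfm13, a read-through transcript gene spanning Tnfsf12 and Tnfsf13, followed Tnfsf13 with 235, 194, 377 and 162 counts, in the order wild type 1 and 2 and inducible HIF-1a 1 and 2. These 3 rows share exons, so their counts cannot be assigned with certainty.

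Cd40, the receptor through which T helper cells activate B cells, dendritic cells and macrophages, had 66 and 89 counts in wild type and 8 and 0 in inducible HIF-1a. Its ratio of summed counts was 21.0 (exact 95% interval 10.4 to 49.5, counting error only). The genotypes did not overlap, but Cd40 was not called (log2 fold change -4.37 ± 1.10, adjusted p = 0.129). It was called lower by DESeq2, by edgeR's exact test, with no filter on low counts, and with either inducible HIF-1a library left out (adjusted p over the 12 alternatives 1.77e-09 to 0.985). In percent of the wild-type mean, Cd40 stood at 9.43% and 0% in the inducible HIF-1a libraries. Cd40lg, the T cell ligand, had 0, 6, 1 and 0 counts in the order given above and was not tested.

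**Figure D2:**
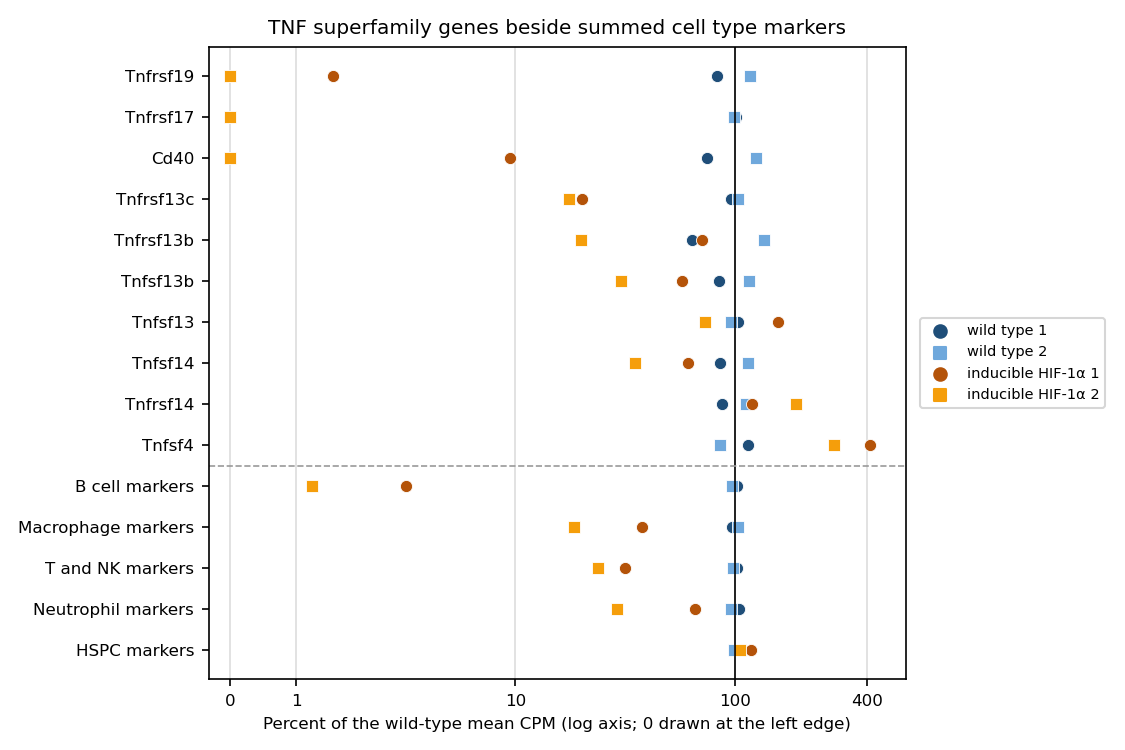
Each library's level in percent of the wild-type mean (log axis, 0 drawn at the left edge) for 10 members and, below the dashed line, the summed CPM of cell type marker lists. B cell markers sat at 3.16% and 1.19% in the inducible HIF-1α libraries, below Tnfrsf13c at 20.1% and 17.6%, while HSPC markers sat at 118% and 106%.

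Tnfrsf19 had the largest ratio between the genotypes among called members. The gene encodes TROY, a receptor best known from the nervous system and hair follicles that is able to signal through TRAF adaptors (Entrez 29820; chromosome 14, 60963834 to 61046855). The row overlaps the annotated gene Gm41167 on the genome. Tnfrsf19 had 234 and 268 counts in wild type and 4 and 0 in inducible HIF-1a. Its level fell from 10.6 ± 2.57 to 0.0775 ± 0.11 CPM (SD, n = 2 each; log2 fold change -7.02 ± 0.80, edgeR adjusted p = 0.017). The ratio of summed counts was 136 (exact 95% interval 52.8 to 501, counting error only). The inducible HIF-1a libraries were both near the limit of detection while the wild-type libraries were well above it. The call was lost without wild-type replicate 1 (-7.22, adjusted p = 0.291) and without wild-type replicate 2 (-6.75, adjusted p = 0.551). It held without either inducible HIF-1a library, at -6.01 without replicate 2 and at a fitted -11.05 without replicate 1, where the remaining library had no counts and the value depends on the prior count. The 8 stromal and endothelial markers summed to 82.1 and 84.7 CPM in wild type and 47.6 and 32.5 CPM in inducible HIF-1a, with 1 called lower, and the part of these or of the B cell and macrophage markers in the Tnfrsf19 difference was not tested.

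Tnfrsf22, Tnfrsf23 and Tnfrsf26 lie side by side on chromosome 7 (143607685 to 143686436 in all). Tnfrsf22 and Tnfrsf23 encode mouse decoy receptors for TRAIL, the apoptosis-inducing ligand. Tnfrsf26 was the most abundant of the group, with 72.1 and 88.6 CPM in wild type and 59.9 and 32.3 CPM in inducible HIF-1a (-0.80 ± 0.31, adjusted p = 0.265). Tnfrsf22 (-0.50 ± 0.44, adjusted p = 0.6) and Tnfrsf23 (-0.13 ± 0.44, adjusted p = 0.905) had overlapping genotypes. The 3 genes are close relatives, so reads may have been split between them.

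Of the 8 genes of the TNF and lymphotoxin group, 7 were tested and none was called, with a median log2 fold change of -0.75. TNF, the founding inflammatory cytokine, and the lymphotoxins were at low counts. Tnf had 40 and 81 counts in wild type and 64 and 40 in inducible HIF-1a (log2 fold change -0.39 ± 0.61, adjusted p = 0.788), with the inducible HIF-1a values inside the wild-type range of 1.49 to 3.74 CPM. Ltb, encoding the membrane anchor of lymphotoxin, had 41, 24, 23 and 4 counts (-1.34 ± 0.93, adjusted p = 0.51). Lta, encoding the secreted lymphotoxin, had 5 and 2 counts in wild type and 0 in both inducible HIF-1a libraries and was not tested. The exact 95% lower limit of its ratio was 1.56 (counting error only).

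Their receptors were far more abundant and none was called. Tnfrsf1a, the death domain receptor of TNF found on most cells, was at 77.5 and 73.2 CPM in wild type and 68.4 and 33.3 CPM in inducible HIF-1a (-0.57 ± 0.33, adjusted p = 0.441). Tnfrsf1b, the TRAF-binding receptor of leukocytes, was at 102 and 115 CPM against 79.2 and 35.8 CPM (-0.91 ± 0.36, adjusted p = 0.269). Ltbr, the lymphotoxin β receptor, was at 20.3 and 23.2 CPM against 17.4 and 8.38 CPM (-0.75 ± 0.36, adjusted p = 0.353). In each of the 3 the inducible HIF-1a libraries lay below wild type, replicate 1 at 90.8%, 73.2% and 80.1% of the wild-type mean and replicate 2 at 44.2%, 33.1% and 38.6%, in the order named. All 3 were called lower when inducible HIF-1a replicate 1 was left out and were not called when replicate 2 was left out.

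LIGHT and its receptor HVEM had opposite signs. Tnfsf14, encoding LIGHT, was at 8.81 and 11.8 CPM in wild type and 6.28 and 3.63 CPM in inducible HIF-1a (log2 fold change -1.06 ± 0.38, adjusted p = 0.235). Tnfrsf14, encoding HVEM, which also binds the inhibitory lymphocyte receptor BTLA, was at 32.1 and 41.2 CPM against 43.9 and 69.3 CPM (0.63 ± 0.28, adjusted p = 0.315). The genotypes overlapped for neither gene and neither was called. Tnfrsf14 is the only member that was called higher without inducible HIF-1a replicate 1 (0.92, adjusted p = 3.07e-05), and without replicate 2 its log2 fold change was 0.30. Erythroid markers, 5 genes, differed between the same libraries, with sums of 625 CPM in inducible HIF-1a replicate 1 and 1422 CPM in replicate 2, beside 1217 and 1496 CPM in wild type, and their part in the Tnfrsf14 values was not tested.

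**Figure D3:**
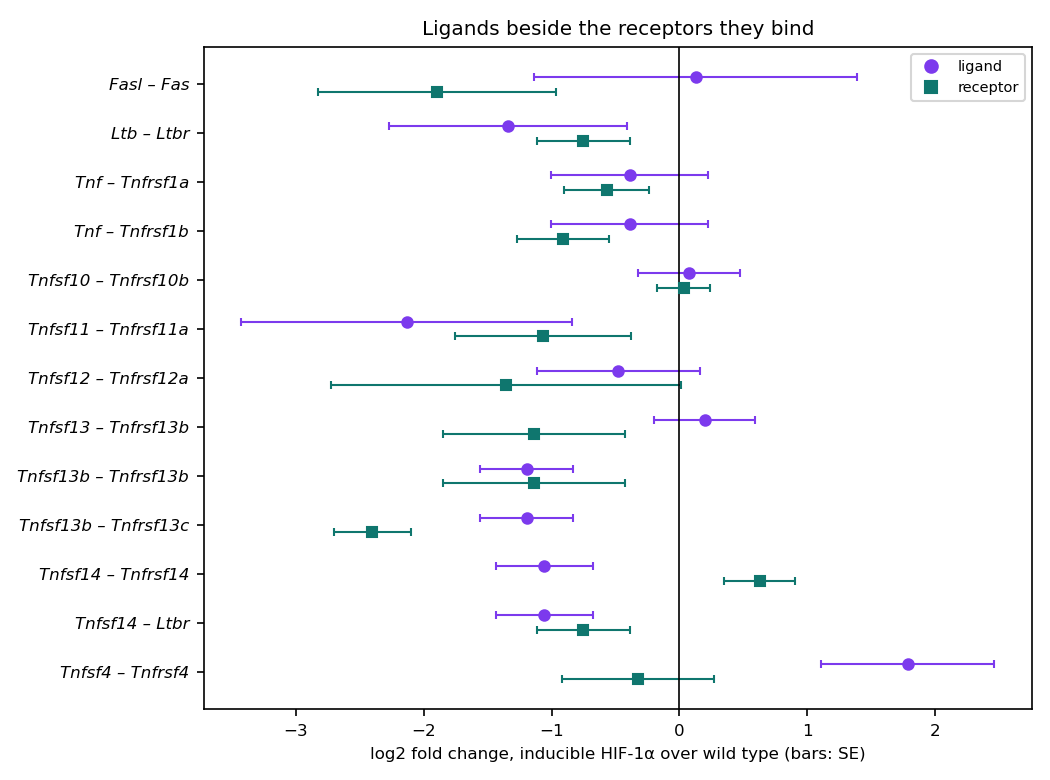
Log2 fold changes with SE bars for ligands (circles) and the receptors they bind (squares). Shown are the 13 listed pairs in which both genes were tested and have counts in both genotypes. Most pairs sit left of 0 on both sides, with BAFF (Tnfsf13b, -1.19) and its receptor Tnfrsf13c (-2.40) among them, while LIGHT (Tnfsf14, -1.06) and HVEM (Tnfrsf14, 0.63) sit on opposite sides.

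Taking the ligands beside the receptors, 25 ligand and receptor pairs were listed among the members, and in 15 of them both genes were tested. Both had negative log2 fold changes in 9 pairs, both were positive in 1 (Tnfsf10 and Tnfrsf10b), the ligand was positive and the receptor negative in 4, and the reverse held for Tnfsf14 and Tnfrsf14. Several pairs share a gene, so these counts are not independent. They include the pairs of Tnfrsf17 with Tnfsf13b and with Tnfsf13, although Tnfrsf17 reached the level needed for testing in wild type only. The counts thus describe these pairs and support no difference from other genes. The list is also incomplete, since Tnfsf10 was not paired with its decoy receptors Tnfrsf22 and Tnfrsf23.

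The death receptor group had 6 tested genes of 7 and no called member (median log2 fold change 0.05). Fas, encoding the receptor that triggers apoptosis on binding FAS ligand, had 95 and 76 counts in wild type and 45 and 4 in inducible HIF-1a (log2 fold change -1.90 ± 0.93, adjusted p = 0.358). Its wild-type values of 3.55 and 3.51 CPM lay close together, and the inducible HIF-1a values of 1.74 and 0.15 CPM were both below them but far from each other. Fasl, encoding the ligand made by T and NK cells, had 13, 5, 1 and 20 counts, with its highest and lowest values in the inducible HIF-1a libraries (0.13 ± 1.26, adjusted p = 0.971).

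TRAIL, encoded by Tnfsf10, was the most abundant ligand per length of exon. Its level was 36.5 and 37.5 CPM in wild type, between 55.5 and 22.4 CPM in the inducible HIF-1a libraries (log2 fold change 0.07 ± 0.40, adjusted p = 0.945). The direction depended on which inducible HIF-1a library was kept: Tnfsf10 was called lower without replicate 1 (-0.73, adjusted p = 0.0067) and higher without replicate 2 (0.62, adjusted p = 0.0251). Tnfrsf10b, the mouse death receptor for TRAIL, was at 29.7 and 31.6 CPM in wild type and 33.7 and 29.0 CPM in inducible HIF-1a (0.03 ± 0.21, adjusted p = 0.953), and the genotypes overlapped.

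Tnfrsf21, encoding the death domain receptor DR6, was the most abundant receptor per length in wild type. It was at 143 and 158 CPM in wild type and 92.6 and 85.4 CPM in inducible HIF-1a, with no overlap and little spread within either genotype. The log2 fold change of -0.76 ± 0.18 did not pass (adjusted p = 0.115). It was called lower by DESeq2, by edgeR's exact test and with either inducible HIF-1a library left out, and its value lay between -0.82 and -0.67 over its 13 alternatives (adjusted p 0.000119 to 0.985). Tnfrsf25, encoding DR3, had 7, 8, 4 and 3 counts and was not tested. Its ligand gene Tnfsf15 had 11, 2, 18 and 5 counts, with overlapping genotypes (0.77 ± 1.13, adjusted p = 0.77).

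Of the lymphocyte costimulation genes, none of the 6 tested was called. Tnfsf4, encoding OX40 ligand, a costimulator made by antigen-presenting cells, was the tested member with the highest log2 fold change. It had 15 and 9 counts in wild type and 52 and 37 in inducible HIF-1a, that is 0.56 and 0.415 CPM against 2.01 and 1.38 CPM (1.78 ± 0.68, adjusted p = 0.256). The 6 dendritic cell markers summed to 73.0 and 79.99 CPM in wild type and 66.2 and 49.6 CPM in inducible HIF-1a, with 1 called lower. Zbtb46 alone among them had a positive log2 fold change (0.85 ± 0.30, not called), at 150% and 209% of the wild-type mean in the inducible HIF-1a libraries. The part of these markers in the Tnfsf4 values was not tested. The genotypes did not overlap for Tnfsf4, and its value lay between 1.49 and 2.06 over the 12 alternatives, none of which called it (adjusted p 0.0973 to 0.985). Its receptor gene Tnfrsf4, encoding OX40 of activated T cells, had 42, 27, 28 and 31 counts (-0.33 ± 0.60, adjusted p = 0.822); the row overlaps Sdf4.

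Cd27, a receptor of lymphocytes and of multipotent progenitors, was at 19.2 and 18.5 CPM in wild type, between 26.1 and 9.02 CPM in the inducible HIF-1a libraries (-0.10 ± 0.46, adjusted p = 0.93). It was called lower without replicate 1 (-1.07, adjusted p = 0.000545) and was positive without replicate 2 (0.51, adjusted p = 0.158). Its ligand gene Cd70 had no counts in any library. Tnfrsf18, encoding GITR of regulatory T cells, had 68 and 29 counts in wild type and 22 and 21 in inducible HIF-1a (-1.24 ± 0.63, adjusted p = 0.375), and its ligand gene Tnfsf18 had 1 count in all. Tnfsf8, encoding CD30 ligand, had 43, 36, 54 and 22 counts (-0.16 ± 0.65, adjusted p = 0.921) and Tnfsf9, encoding 4-1BB ligand, 10, 17, 11 and 0 (-1.42 ± 1.37, adjusted p = 0.636). Their receptor genes Tnfrsf8 (14, 1, 0 and 7 counts) and Tnfrsf9 (10, 1, 15 and 3 counts) were not tested.

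In the RANK system, which drives osteoclast formation, Tnfrsf11a, encoding the receptor RANK, had 32 and 28 counts in wild type and 17 and 14 in inducible HIF-1a (log2 fold change -1.07 ± 0.69, adjusted p = 0.48). The ligand gene Tnfsf11 had 19, 22, 10 and 0 counts (-2.13 ± 1.29, adjusted p = 0.453). The genotypes overlapped for neither gene, at counts that leave wide errors. Tnfrsf11b, encoding the decoy receptor osteoprotegerin, had 4, 0, 0 and 2 counts and was not tested. Tnfsf12, encoding TWEAK, had 38, 47, 45 and 22 counts (-0.48 ± 0.64, adjusted p = 0.743). Its receptor gene Tnfrsf12a, encoding FN14, had 26, 9, 14 and 0 counts (-1.36 ± 1.37, adjusted p = 0.651).

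**Figure D4:**
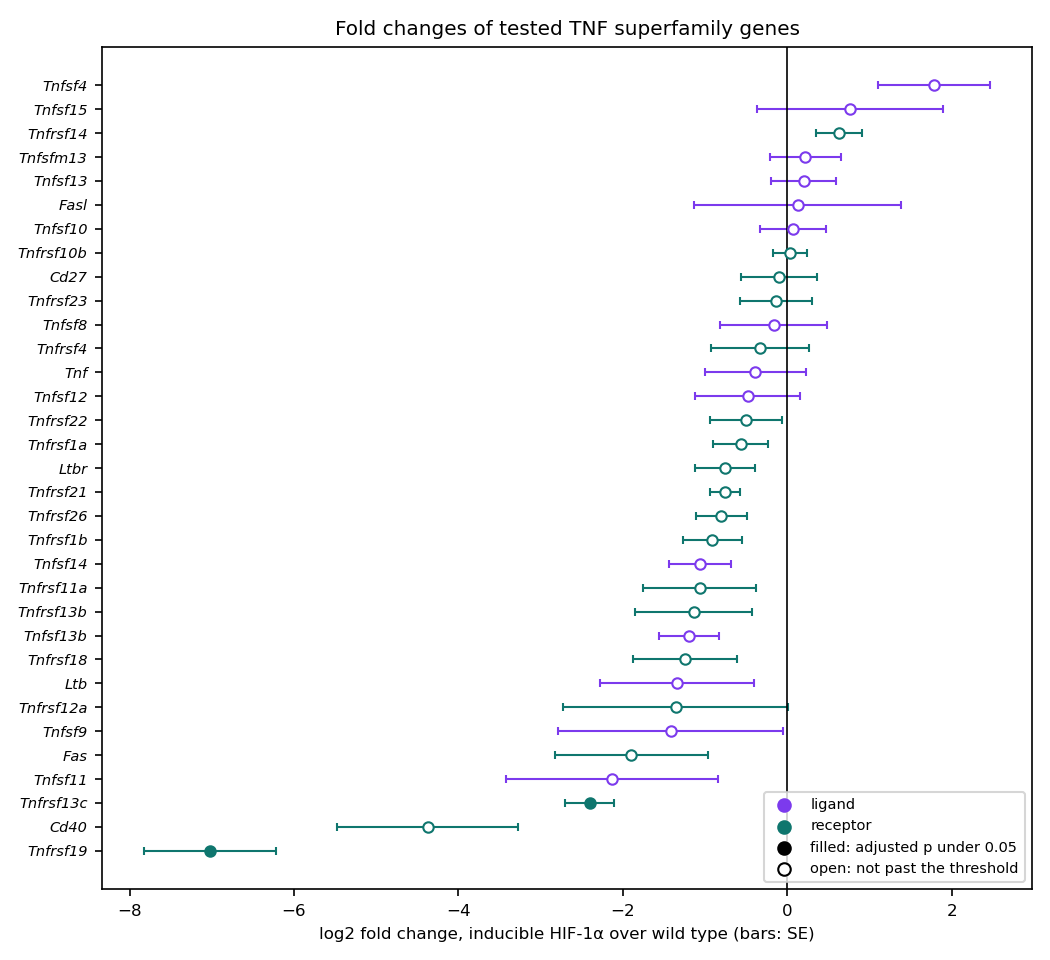
Log2 fold change (inducible HIF-1α over wild type, SE bars) of the tested members other than Tnfrsf17, which had no counts in inducible HIF-1α; filled points passed an adjusted p of 0.05. The 2 filled points are Tnfrsf19 (-7.02) and Tnfrsf13c (-2.40), and Tnfsf4 (1.78) is the highest.

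Levels of different members can be set against each other only per length of exon (CPM per kb, GENCODE vM21 basic exons). In wild type the order of the receptors began with Tnfrsf21 at 41.5 ± 3.02, Tnfrsf1a at 34.9 ± 1.40, Tnfrsf1b at 28.3 ± 2.45, Tnfrsf14 at 28.2 ± 4.96 and Tnfrsf26 at 25.0 ± 3.62 CPM per kb (SD, n = 2 each). Tnfrsf21 and Tnfrsf1a lay apart by more than their SDs, whereas Tnfrsf1b, Tnfrsf14 and Tnfrsf26 did not differ beyond theirs. In inducible HIF-1a the highest mean was that of Tnfrsf14, at 43.6 ± 13.9, followed by Tnfrsf21 at 24.5 ± 1.41 and Tnfrsf1a at 23.6 ± 11.5 CPM per kb. The ligands were lower in wild type, the highest being Tnfsf10 at 7.03 ± 0.138, Tnfsf13 at 5.74 ± 0.30, Tnfsf14 at 5.58 ± 1.15 and Tnfsf13b at 4.32 ± 0.959 CPM per kb. Tnf stood at 1.60 ± 0.969 CPM per kb.

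The dependence on the inducible HIF-1a libraries ran through both families. Without inducible HIF-1a replicate 1, 19 members were called lower, 13 receptors and 6 ligands, and Tnfrsf14 higher, in a fit that called 19.7% of all tested genes lower and 12.4% higher. Without replicate 2, Cd40, Tnfrsf13c, Tnfrsf19, Tnfrsf21 and Tnfsf13b were called lower, all 5 of which are among the 19, and Tnfsf10 higher, beside 7.64% and 3.84% of all tested genes. No member was called without either wild-type library, and the lone library left in a genotype was assumed to vary like the other genotype's pair.

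**Figure D5:**
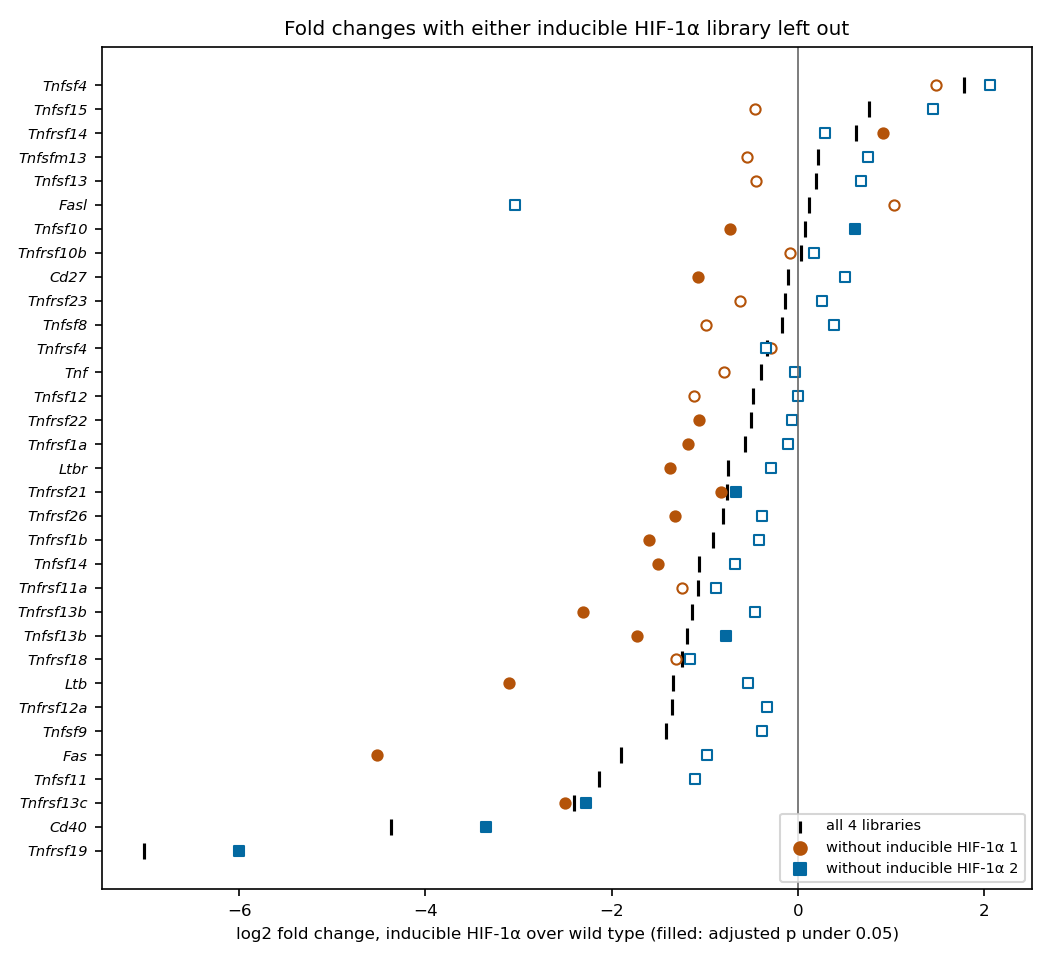
Log2 fold change of tested members with all 4 libraries (bars), without inducible HIF-1α library 1 (orange circles) and without library 2 (blue squares); filled symbols passed an adjusted p of 0.05, and members with 0 counts in the remaining library have no circle, as has Tnfrsf17. Tnfrsf13c lies at -2.51 and -2.27, Tnfrsf21 at -0.82 and -0.67, and Tnfsf10 changes from -0.73 to 0.62.

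Beyond the ligands and receptors, 33 signalling partners were examined, among them the TRAF adaptors, death domain adaptors, caspases, the kinases of the NF-κB pathway, ubiquitin enzymes and the sheddases ADAM10 and ADAM17. All 33 were tested and edgeR's quasi-likelihood test called none. At an unadjusted p under 0.05 in that test, 4 were lower and 1 higher, beside 16.9% of all tested genes. DESeq2 called 2 lower, edgeR's exact test 2 lower and limma-voom none, beside 5.69%, 6.62% and 1.36% of all tested genes lower. The partners' median log2 fold change was -0.10. Birc3, encoding the ubiquitin ligase cIAP2, had the smallest p, with 115 and 118 CPM in wild type and 67.8 and 51.3 CPM in inducible HIF-1a (log2 fold change -0.96 ± 0.21, adjusted p = 0.0905).

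Genes of the same structural family that carry other symbols were not called either. Eda2r, encoding a receptor for an isoform of ectodysplasin, was at 0.97 and 0.923 CPM in wild type and 3.76 and 2.66 CPM in inducible HIF-1a, without overlap (log2 fold change 1.75 ± 0.52, adjusted p = 0.176). Relt (-0.28 ± 0.26, adjusted p = 0.623), Ngfr (-0.46 ± 0.91, adjusted p = 0.838) and Eda (0.28 ± 0.46, adjusted p = 0.796) were also tested. Edar, with 0 counts in both wild-type libraries and 2 and 6 in inducible HIF-1a, was not tested.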

How the data were processed

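RNA was sequenced from CD117-selected bone marrow cells, 2 libraries per genotype. The authors deposited unnormalized read counts for every gene, 1 column per library, matched to samples by the column name. The build was mm10, and TopHat, edgeR, bcl2fastq and CASAVA 1.8 were among the tools, per the submitters' processing notes. Not given in the sources used here were the counting tool, annotation, strand setting, treatment of multi-mapped reads and sequencing batches. Symbols and coordinates came from a RefSeq table of GRCm38.p6, in which 81 of 24415 identifiers had no match. No member's row was identical to another row, and 15 members overlap another annotated gene.

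Genes were filtered with filterByExpr (minimum count 10), scaled by TMM and tested with edgeR 4.0.16 (quasi-likelihood, no block, R 4.3.3), Benjamini-Hochberg adjusted over 14043 genes at 0.05. On simulated data of 13814 genes, the fit called 30% of 2-fold and 98% of 4-fold changes, and 4.14% of its calls were false. CPM uses TMM library sizes; errors are SDs over 2 libraries, or the SE of a log2 fold change, its size over the square root of F. Alternatives used other scalings, filters, a threshold of 0.1, DESeq2 1.42.0, limma-voom (limma 3.58.1), edgeR's exact test, a replicate block and leaving out each library. Members and lists were chosen with earlier results of these data known. Every member is named; of the partners, the one with the smallest p.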

Additional observations from a re-analysis of the deposited data

How the results depend on the processing

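Tnfrsf13c and Tnfrsf19 were called lower under all 3 other scalings, with no filter, by DESeq2, limma-voom and edgeR's exact test, with the replicate block and without either inducible HIF-1a library, and neither was called without either wild-type library; Tnfrsf19 was not testable at 1 CPM or more in all 4 libraries. The number of members called lower, 2 in the main fit, was 1 with at least 1 CPM in all 4 libraries, 4 with DESeq2 and 6 with edgeR's exact test, and 0 to 19 with 1 library left out (higher, 0 to 1). Among all genes, 141 lower and 16 higher in the main fit became 368 and 41 at a threshold of 0.1, 628 and 119 with no filter, 69 and 9 with at least 1 CPM in all 4 libraries, 799 and 172 with DESeq2 and 930 and 191 with edgeR's exact test. Total-count scaling left 85 lower. With 1 library left out these numbers ran from 0 to 2871 lower and 0 to 1798 higher. Signalling partners called lower were 1 at a threshold of 0.1 and with no filter, 2 with DESeq2 and 2 with the exact test, and 0 to 6 (higher, 0 to 3) with 1 library left out.

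No label says what same-numbered libraries share beyond the number. Their deviations from the genotype means had a correlation of 0.077, which cannot decide if they shared a preparation or batch. With the replicate block 2 members, 347 genes in all lower and 34 higher were called, and the block changed no member's call. Of 424 member fold changes recomputed, 375 kept direction and side of the threshold, 29 newly passed it, 18 of them without inducible HIF-1a replicate 1, and 17 changed sign, in 11 members; Tnfsf10 without that replicate did both. None changed sign under another scaling. Changes of sign outside the left-out libraries were Fasl (-0.78 with limma-voom, -0.43 with the block) and Tnfsf10 (-0.073 with limma-voom, -0.065 with the block). With 1 library left out, log2 fold changes ran from -1.07 to 0.51 for Cd27, -3.04 to 1.03 for Fasl, -0.89 to 0.41 for Tnf, -0.080 to 0.17 for Tnfrsf10b, -0.62 to 0.40 for Tnfrsf23, -0.73 to 0.62 for Tnfsf10, -1.12 to 0.00099 for Tnfsf12, -0.45 to 0.68 for Tnfsf13, -0.46 to 2.22 for Tnfsf15, -0.99 to 0.39 for Tnfsf8 and -0.55 to 0.76 for Tnfsfm13. The cause was not tested. Depth limits the 8 members not tested, which had at most 15 counts in a library.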
